A study of Homo sapiens with 6 samples.

Results

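The collagen genes are the genes whose symbol is COL, a number, A and a number, such as COL6A1. They were taken from the array features that carry exactly 1 gene symbol, and of the 3 features of COL11A2 the one with the highest mean over the 6 arrays was used. This gave 40 collagen genes among the 16704 genes of the table, and 44 protein-coding genes of this name pattern are listed by RefSeq. COL4A3, COL4A4, COL6A6 and COL17A1 were not analysed here. No other measured value entered this rule, which was chosen with earlier results of these data known.

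The study used LNCaP, an androgen-responsive prostate cancer cell line. Its knockdown cells were 3 clones stably transfected with a short hairpin RNA against MBD2, and their controls were 3 clones with a scrambled hairpin. Both groups carried the siLentGene-2 vector and were selected by neomycin resistance in the same medium, and each sample is 1 clone on 1 array, so clone-to-clone differences are part of every comparison. Cytoplasmic RNA was measured on Affymetrix human Gene ST arrays as log2 signal per feature, and the comparison addresses which genes respond to a reduction of MBD2.

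Collagens are secreted or membrane proteins in which chains with regularly spaced glycines wind around each other in a helix. Fibrillar collagens give tissues tensile strength, network collagens form the sheet of basement membranes, beaded-filament collagens of type VI link cells to the matrix, and fibril-associated collagens decorate fibrils. In the prostate most fibrillar collagen is made by stromal fibroblasts, while epithelial cells contribute to the basement membrane. MBD2 attaches to DNA at methylated CpG dinucleotides and brings in the repressive NuRD complex, and the promoters of several collagen genes are rich in CpG. The methylation of these promoters was not analysed here.

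MBD2 itself had log2 signals of 7.68, 7.84 and 7.81 in the knockdown clones, against 8.73, 9.24 and 9.20 in the control clones, so the groups did not overlap. Its log2 fold change was -1.28 (limma, adjusted p = 0.111). The 8 measured markers of LNCaP and luminal prostate cells, among them KLK3, KRT8 and EPCAM, all lay above the median of every array. Of 14 fibroblast and stromal markers that are not collagens, 8 had a mean over the 6 arrays under every array's lower quartile, among them DCN and LUM, which the list of collagen-binding proteins used further on also holds, and no feature was listed at 0. The mean of the stromal markers was 4.36 to 4.50 in the knockdown clones and 4.35 to 4.56 in the controls, so the groups overlapped, and 0 of 14 had an unadjusted p under 0.05 in limma. Only VIM, which codes for vimentin, was bright among them, with a mean of 8.95 in knockdown clones and 9.28 in controls. All 6 endothelial markers lay under the lower quartile of every array, and of 6 leukocyte markers LCP1 and CD68 had a mean over the 6 arrays above every array median. The endothelial mean was 3.90 to 4.16 in knockdown clones and 3.96 to 3.99 in controls, and the leukocyte mean 5.27 to 5.40 in knockdown clones and 5.32 to 5.43 in controls. The luminal mean was 9.68 to 10.08 in knockdown clones and 9.71 to 10.02 in controls. In none of these marker lists did a gene reach an unadjusted p under 0.05.

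Most collagen genes had slightly higher signals in the MBD2 knockdown clones, and COL6A1, COL9A3 and COL6A2 stood out. COL6A1 was 1.41-fold higher, COL9A3 1.23-fold and COL6A2 1.17-fold, and each had its 3 knockdown values above its 3 control values. None of the 40 genes passed limma's test at an adjusted p under 0.05, as was the case for all genes of the table (percent called 0). At an unadjusted p under 0.05 there were 4 collagen genes on the higher side, COL6A1, COL9A3, COL6A2 and COL19A1, or 10% of the collagen genes, against 3.93% of all genes. On the lower side there were 0, against 5.45% of all genes. Counted in either direction, 10% of the collagen genes stand near the 9.39% of all genes. Groups did not overlap in 6 collagen genes, all with higher knockdown values (15%, against 6.57% of all genes), and in 0 with lower ones (8.87% of all genes). An exact permutation test of any 1 of these 6 genes gives a two-sided p of 0.1, the smallest that 3 against 3 arrays allow.

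The mean was higher in the knockdown clones in 35 of 40 collagen genes, against 48.7% of all genes. The median log2 fold change of the collagen genes was 0.11, against -0.0044 for all genes. A mean over 1.1-fold higher was seen in 15 of 40 collagen genes, or 37.5%, against 15% of all genes. Standard errors of the log2 fold changes lay between 0.08 and 0.16. In RNA of whole cultures, fewer cells that express a gene and less RNA per cell cannot be told apart. These counts moved with 1 array. Knockdown clone 1 was the highest of the 6 arrays in 34 of 40 collagen genes, against 31.1% of all genes. Without that clone the median of the collagen genes was 0.040 and 29 of 40 had higher means, against a median of -0.0233 and 43.4% higher for all genes.

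**Figure D1:**
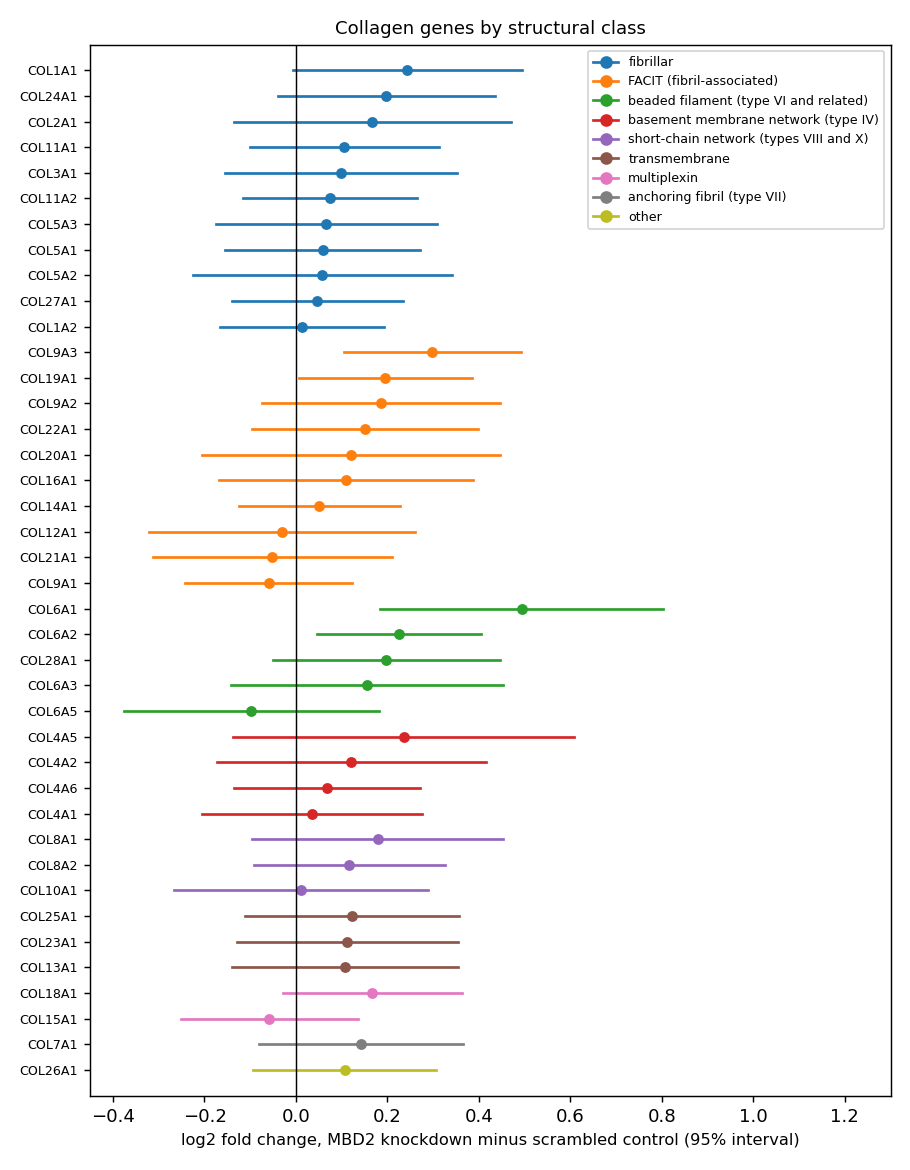
Log2 fold change of each collagen gene (horizontal axis, knockdown minus control) with limma's 95% confidence interval, coloured by structural class. Points lie between -0.10 for COL6A5 and 0.49 for COL6A1, 35 of 40 lie above 0, and only the intervals of COL6A1, COL9A3, COL6A2 and COL19A1 leave out 0.

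Type VI collagen is assembled in the cell from chains of COL6A1, COL6A2 and a longer partner chain such as that of COL6A3, and its filaments lie close to basement membranes. COL6A1 (feature 8069269) had log2 signals of 8.59, 8.72 and 8.74 in the knockdown clones, against 7.95, 8.17 and 8.46 in the control clones. Control clone 3 came nearest to the knockdown clones, and the controls spread more widely than the knockdown clones. The mean was 8.69 ± 0.08 in knockdown clones and 8.19 ± 0.25 in controls (SD, n = 3 each). In limma the log2 fold change was 0.49, its standard error (SE) 0.13 and its 95% confidence interval 0.18 to 0.80 (unadjusted p = 0.00659, adjusted p = 0.338). COL6A2 (feature 8069301) had 7.28, 7.24 and 7.20 in knockdown clones and 7.02, 6.94 and 7.07 in controls. Its groups did not overlap either, with a log2 fold change of 0.23, a standard error of 0.08 and an unadjusted p of 0.02 in limma (adjusted p = 0.422). COL6A3, the gene of the longer partner chain, was dim, with 4.42, 4.05 and 3.94 in knockdown clones and 4.02, 3.94 and 3.98 in controls. Only knockdown clone 1 lay clearly above the controls in COL6A3, and its log2 fold change of 0.15 had a standard error of 0.13.

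The 2 further members of this class were dim as well. COL28A1, whose product is related to the type VI chains, had 4.61, 4.26 and 4.35 in knockdown clones and 4.20, 4.27 and 4.16 in controls. COL6A5, another partner chain, was the collagen gene with the lowest log2 fold change, at -0.10 (SE 0.12). Its signals were 3.29, 2.96 and 2.93 in knockdown clones and 3.26, 3.05 and 3.16 in controls, under the lower quartile of every array. Without knockdown clone 1 its log2 fold change was -0.21, and COL6A5 was then the 1 collagen gene with an unadjusted p under 0.05 on the lower side in limma (adjusted p = 0.311).

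COL6A1 and COL6A2 are direct neighbours among the measured genes, and in order of start position 3 measured genes come between COL18A1 and them. PCBP3, the measured gene before COL6A1 in RefSeq order, had a log2 fold change of 0.22, and FTCD, the measured gene after COL6A2, had 0.12. SLC19A1 and SPATC1L, the next ones on either side, had 0.07 and -0.0081. COL18A1-AS1, which comes between COL18A1 and SLC19A1 in order of start position, had -0.07. These values are given for their position and were not tested as a stretch. The 250 bases before the start of COL6A2 are shown because MBD2 binds methylated CpG and this is the gene of the pair with a sequence in the RefSeq table used here. They lie at chr21:46097862-46098111 on the forward strand of GRCh38.p14, and capitals mark the CpG dinucleotides, of which there are 28.
COL6A2: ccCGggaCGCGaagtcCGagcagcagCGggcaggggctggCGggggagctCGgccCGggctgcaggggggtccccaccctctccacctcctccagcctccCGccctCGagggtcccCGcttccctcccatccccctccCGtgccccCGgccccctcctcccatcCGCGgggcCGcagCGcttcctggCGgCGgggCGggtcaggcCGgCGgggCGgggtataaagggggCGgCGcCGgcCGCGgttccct

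**Figure D2:**
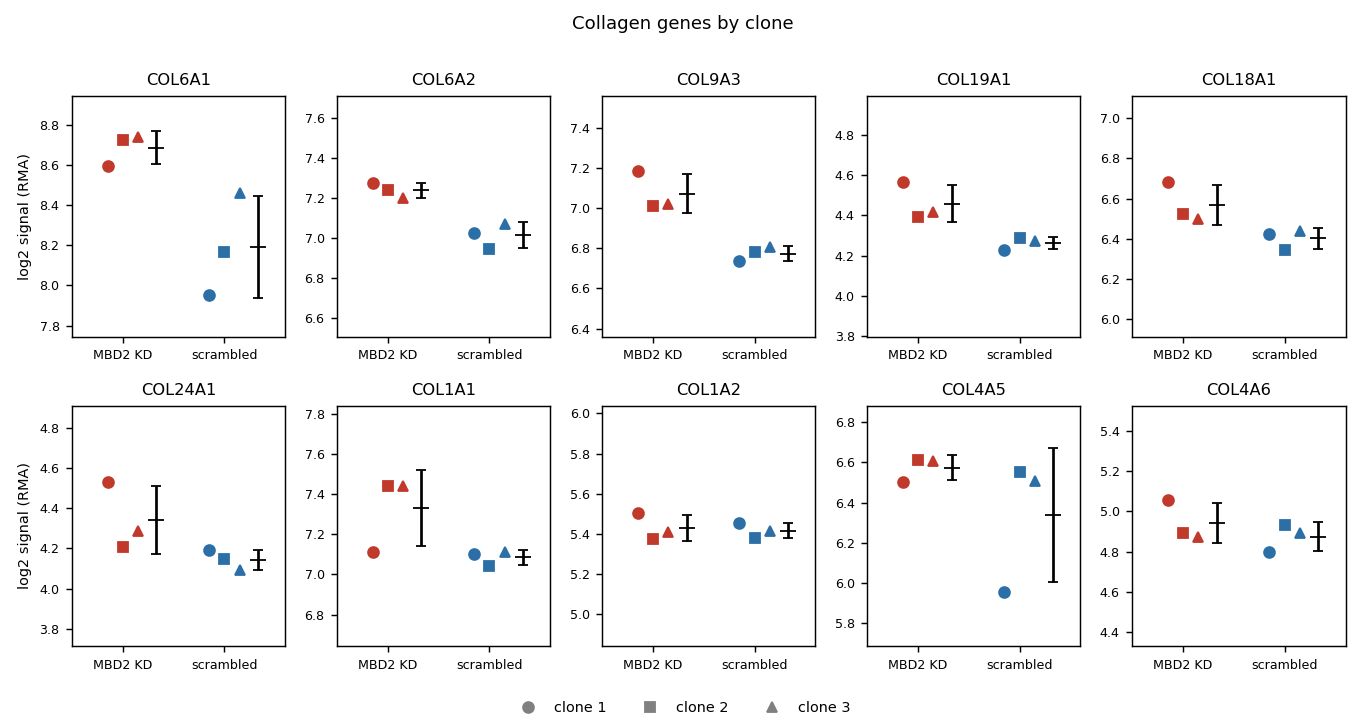
Log2 signal of each clone for 10 collagen genes, with knockdown clones in red left of control clones in blue, symbols for the clone number, and a black mark for the mean ± SD of 3 clones. In COL6A1, COL6A2, COL9A3, COL19A1, COL18A1 and COL24A1 the groups do not overlap, in COL1A1 only knockdown clones 2 and 3 are high, and in COL4A5 only control clone 1 is low.

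The fibril-associated collagens coat the surface of fibrils, and type IX is built from chains of COL9A1, COL9A2 and COL9A3 and is best known from cartilage. COL9A3 (feature 8063970) had 7.19, 7.01 and 7.02 in knockdown clones and 6.74, 6.78 and 6.81 in controls. All 3 knockdown clones were above all controls, and the gap between the groups exceeded the spread within either. The log2 fold change was 0.30 (SE 0.08), with a 95% confidence interval of 0.11 to 0.49 (limma, unadjusted p = 0.00766, adjusted p = 0.347). COL9A2, the gene of a partner chain, had 6.32, 6.02 and 6.05 in knockdown clones and 6.07, 5.84 and 5.92 in controls. Control clone 1 lay above knockdown clones 2 and 3, so the groups overlapped, and the log2 fold change was 0.19 (SE 0.11). COL9A1 stood at 4.82, 4.69 and 4.80 in knockdown clones and 4.84, 4.87 and 4.78 in controls, with a log2 fold change of -0.06. The measured neighbours of COL9A3 in RefSeq order, OGFR and TCFL5, had -0.14 and 0.03.

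COL19A1, which codes for a further fibril-associated collagen, had 4.56, 4.39 and 4.41 in knockdown clones and 4.23, 4.29 and 4.27 in controls. The groups did not overlap, though all values lay under the lower quartile of every array. Its log2 fold change was 0.20 (SE 0.08; limma, unadjusted p = 0.0445, adjusted p = 0.518). The adjacent gene COL9A1 had the opposite sign. Of the other members of this class, COL22A1, COL20A1, COL16A1 and COL14A1 had log2 fold changes of 0.15, 0.12, 0.11 and 0.05, and COL12A1 and COL21A1 had -0.03 and -0.05. In COL20A1 the signal was 6.47 in knockdown clone 1 and 6.0 and 5.97 in knockdown clones 2 and 3, against 6.06, 6.03 and 5.99 in controls, so that only knockdown clone 1 stood apart. The groups overlapped in all 6 of these genes.

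Sequences of COL9A2 and COL19A1 are shown because one gene has a CpG-rich start and the other a CpG-poor one. A link of CpG content to their fold changes was not tested. The 250 bases before the start of COL9A2 lie at chr1:40317287-40317536 on the reverse strand and hold 22 CpG. Those before COL19A1 lie at chr6:69866306-69866555 on the forward strand and hold 6. Capitals mark CpG, and both are RefSeq sequences of GRCh38.p14.
COL9A2: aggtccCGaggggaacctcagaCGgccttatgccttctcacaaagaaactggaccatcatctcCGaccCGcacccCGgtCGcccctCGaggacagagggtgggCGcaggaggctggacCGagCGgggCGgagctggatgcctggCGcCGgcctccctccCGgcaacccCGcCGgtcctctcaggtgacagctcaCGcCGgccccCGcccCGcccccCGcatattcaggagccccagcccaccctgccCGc
COL19A1: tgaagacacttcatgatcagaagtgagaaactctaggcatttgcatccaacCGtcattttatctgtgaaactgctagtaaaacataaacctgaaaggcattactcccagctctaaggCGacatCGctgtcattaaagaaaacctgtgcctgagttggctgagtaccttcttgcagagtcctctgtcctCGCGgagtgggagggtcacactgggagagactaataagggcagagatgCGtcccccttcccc

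Type I collagen, the main fibrillar collagen of connective tissue, joins chains of COL1A1 and COL1A2. COL1A1 (feature 8016646) had 7.11, 7.44 and 7.44 in knockdown clones and 7.10, 7.04 and 7.11 in controls. Knockdown clones 2 and 3 were high and alike, while knockdown clone 1 was level with the controls. The log2 fold change was 0.24 (SE 0.11; limma, unadjusted p = 0.0552, adjusted p = 0.545), and without knockdown clone 1 it was 0.35 (adjusted p = 0.0911). That second fit rests on knockdown clones 2 and 3, which resembled each other more than any other clones did, with an SD of their difference of 0.185 over all genes, against 0.224 to 0.35 for other pairs. COL1A2 did not share the pattern of COL1A1, with 5.50, 5.38 and 5.41 in knockdown clones and 5.46, 5.38 and 5.41 in controls. Its log2 fold change was 0.01 with a 95% confidence interval of -0.17 to 0.19, and it was below 0 after quantile normalization and cyclic loess. The difference between both genes was not tested.

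Among the 9 other fibrillar collagens all means were higher in the knockdown clones, with log2 fold changes from 0.05 to 0.20, and none had an unadjusted p under 0.05. The signs of COL3A1 and COL5A3 turned with array weights and without knockdown clone 1. COL24A1 had the largest of these, with 4.53, 4.21 and 4.29 in knockdown clones and 4.19, 4.15 and 4.09 in controls. Its groups did not overlap, but knockdown clone 2 exceeded control clone 1 by less than the spread among controls. COL2A1, the main collagen of cartilage, stood at 6.21 in knockdown clone 1 and at 5.81 and 5.74 in knockdown clones 2 and 3, against 5.78, 5.78 and 5.70 in controls. COL3A1 and COL5A2 lie side by side in the genome. COL3A1 had 5.61, 5.22 and 5.37 in knockdown clones and 5.29, 5.30 and 5.32 in controls, and COL5A2 had 4.58, 4.89 and 4.88 in knockdown clones and 4.62, 4.66 and 4.91 in controls. Knockdown clone 1 was thus the highest array for COL3A1 and the lowest for COL5A2. COL11A2 had 2 further features with identical values, whose log2 fold change was 0.35 (limma over all features, unadjusted p = 0.0527), against 0.07 for the feature used.

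Basement membranes are built on a network of type IV collagen, whose genes lie in head-to-head pairs that share a promoter region. All 4 measured members had higher means in the knockdown clones, and none had an unadjusted p under 0.05. COL4A5 had 6.50, 6.61 and 6.60 in knockdown clones and 5.95, 6.55 and 6.51 in controls. Only control clone 1 was low, and without it the log2 fold change was 0.04 in place of 0.24. COL4A6, on the other side of their shared start region, had 5.06, 4.89 and 4.87 in knockdown clones and 4.80, 4.93 and 4.89 in controls, a log2 fold change of 0.07. COL4A2 had 5.70, 5.47 and 5.38 in knockdown clones and 5.61, 5.32 and 5.25 in controls, and COL4A1 had 4.89, 4.54 and 4.66 in knockdown clones and 4.70, 4.66 and 4.62 in controls. The groups overlapped in both genes, with log2 fold changes of 0.12 for COL4A2 and 0.04 for COL4A1, and that of COL4A1 was below 0 after quantile normalization, cyclic loess or array weights and without knockdown clone 1.

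Both shared start regions are shown because they differ in CpG content. Between the first bases of COL4A1 and COL4A2 lie 126 bases, at chr13:110307158-110307283 and printed on the forward strand, towards COL4A2, with 20 CpG. Between COL4A5 and COL4A6 lie 379 bases, of which the 250 before COL4A5 are printed, at chrX:108439588-108439837 on the forward strand, with 8 CpG. Capitals mark CpG, in RefSeq sequence of GRCh38.p14.
COL4A1 and COL4A2: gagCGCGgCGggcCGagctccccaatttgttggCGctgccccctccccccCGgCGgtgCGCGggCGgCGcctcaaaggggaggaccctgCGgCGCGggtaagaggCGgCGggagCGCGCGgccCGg
COL4A5: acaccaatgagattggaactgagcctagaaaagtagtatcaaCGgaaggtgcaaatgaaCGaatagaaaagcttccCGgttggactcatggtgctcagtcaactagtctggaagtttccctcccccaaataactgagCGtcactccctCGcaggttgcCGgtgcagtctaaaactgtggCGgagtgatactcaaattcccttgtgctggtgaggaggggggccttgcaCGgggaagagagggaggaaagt

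COL18A1 and COL15A1 code for the multiplexins, basement membrane collagens with interrupted helices. COL18A1, whose product releases the fragment endostatin, had 6.68, 6.52 and 6.50 in knockdown clones and 6.42, 6.34 and 6.44 in controls. The groups did not overlap, and the log2 fold change was 0.17 (SE 0.08; limma, unadjusted p = 0.0848, adjusted p = 0.601). COL15A1 had 4.33, 4.21 and 4.17 in knockdown clones and 4.32, 4.22 and 4.35 in controls, a log2 fold change of -0.06. The 250 bases before the most upstream start of COL18A1 are shown because its window had the highest CpG count among the 28 collagen genes with a promoter sequence here. They hold 37 CpG, in capitals, and lie at chr21:45404915-45405164 on the forward strand of GRCh38.p14. RefSeq lists BNAT1 over the same bases.
COL18A1: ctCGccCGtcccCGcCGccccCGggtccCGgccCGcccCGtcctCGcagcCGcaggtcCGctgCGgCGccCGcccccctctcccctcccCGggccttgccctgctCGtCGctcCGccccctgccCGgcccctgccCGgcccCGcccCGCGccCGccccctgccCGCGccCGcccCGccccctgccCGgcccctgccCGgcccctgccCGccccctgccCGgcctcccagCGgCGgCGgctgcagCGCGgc

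The remaining classes gave small differences. COL8A1, COL8A2 and COL10A1, the short-chain network collagens, had log2 fold changes of 0.18, 0.12 and 0.01. The transmembrane collagens COL25A1, COL23A1 and COL13A1 had 0.12, 0.11 and 0.11. COL7A1, which forms the anchoring fibrils under epithelia, had 6.18, 6.0 and 6.04 in knockdown clones and 6.07, 5.88 and 5.84 in controls, a log2 fold change of 0.14 (SE 0.10). COL26A1 had 6.53, 6.38 and 6.46 in knockdown clones and 6.38, 6.25 and 6.42 in controls, a log2 fold change of 0.11. The groups overlapped in all of these genes, and knockdown clone 1 was the highest array in each.

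The differences varied with brightness. By its mean over the 6 arrays, a gene could lie under every array's lower quartile, as 14 of the 40 did, or above every array median, as 7 did, namely COL6A1, COL1A1, COL6A2, COL9A3, COL18A1, COL4A5 and COL26A1. Single values of COL4A5 and COL26A1 lay below an array median, and COL4A1, among the 14, lay above the lower quartile in knockdown clone 1. Across the 40 genes the log2 fold change and the mean signal had a Spearman correlation of 0.514, as a description over genes measured on the same 6 arrays. The 6 arrays had medians between 6.31 and 6.33, while the SD over genes was 2.00 in knockdown clone 1 and 2.05 to 2.07 in the others. All genes were split into 4 bands of 25% by mean signal, from band 1, the dimmest, to band 4. Of all genes 60.1%, 60.8%, 39.9% and 34.1% had a higher mean in the knockdown clones in bands 1 to 4. Of the collagen genes 10 of 14, 18 of 19, 6 of 6 and 1 of 1 did. In bands 1 to 4 knockdown clone 1 was the highest array in 44%, 43.5%, 20.5% and 16.5% of all genes. Among the collagen genes of these bands it was the highest in 13, 17, 4 and 0. In band 1 the median deviation of all genes from the control mean was 0.108 in knockdown clone 1, and -0.0183 and -0.0204 in knockdown clones 2 and 3. For the 14 collagen genes in that band it was 0.235 in knockdown clone 1, and 0.0347 and 0.0023 in knockdown clones 2 and 3. For the collagen genes of bands 1 to 4 the median deviation in knockdown clone 1 was 0.235, 0.251, 0.222 and 0.401. For all genes of these bands it was 0.108, 0.107, -0.041 and -0.0452. Whether the narrower distribution of this array had a part in these values was not tested beyond the scaling that follows.

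**Figure D3:**
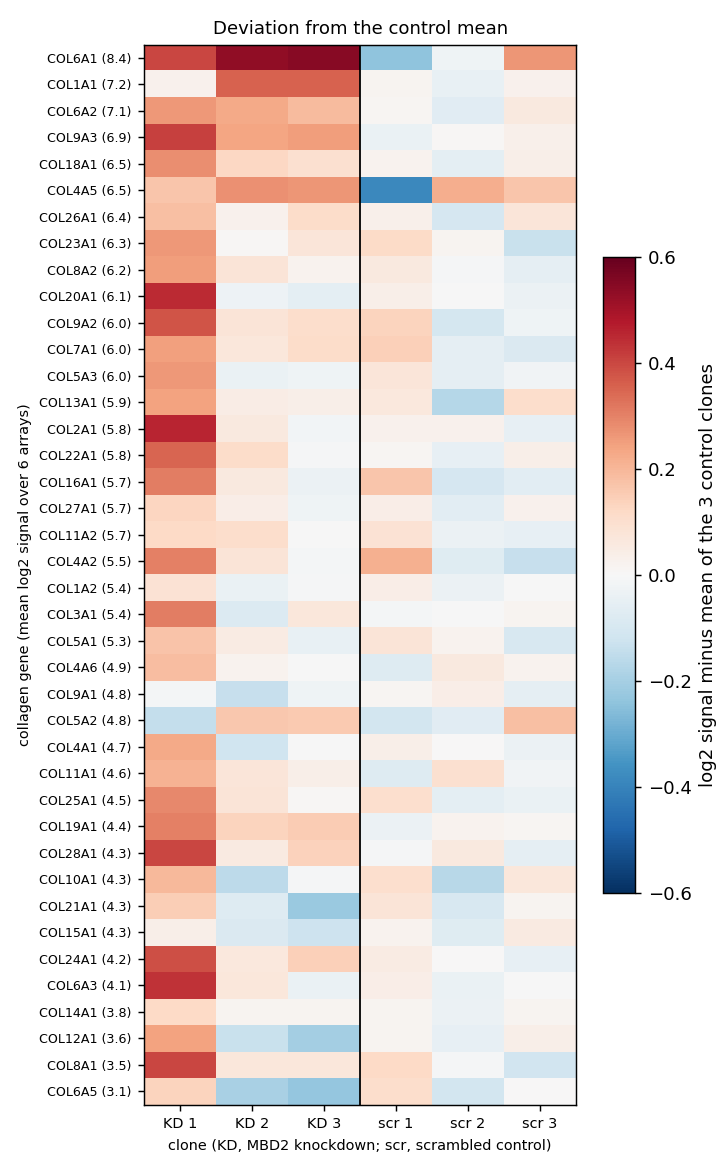
Heat map of the log2 signal minus the mean of the 3 control clones, with collagen genes in rows from bright to dim, their mean log2 signal in brackets, and clones in columns. The column of knockdown clone 1 is red in nearly all rows (38 of 40 above the control mean), while knockdown clones 2 and 3 are above the control mean in 29 and 21 genes and reach their highest values among the bright genes at the top.

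Band 3 held 6 collagen genes, COL1A1, COL6A2, COL9A3, COL18A1, COL4A5 and COL26A1, all described above. Their median deviations were 0.222, 0.231 and 0.218 in knockdown clones 1, 2 and 3. In control clones 1, 2 and 3 the medians were 0.0135, -0.0507 and 0.0474. Groups did not overlap in COL6A2, COL9A3 and COL18A1. They overlapped in COL1A1 (0.025 in knockdown clone 1), COL26A1 (0.027 in knockdown clone 2) and COL4A5 (-0.385 in control clone 1). All genes of that band had medians of -0.041, -0.0234 and -0.0335 in knockdown clones 1, 2 and 3. COL6A1 is the 1 collagen gene in band 4. Forcing all arrays to 1 distribution by quantile normalization left a median log2 fold change of 0.0929 for the collagen genes. Of them 32 of 40 were higher, against 50.5% of all genes. Their median deviation was then 0.211, 0.0577 and 0.0066 in knockdown clones 1, 2 and 3. Knockdown clone 1 was the highest array in 28 of 40, against 27.5% of all genes. Cyclic loess left a median log2 fold change of 0.0857, with 32 of 40 higher, against 49.8% of all genes. With cyclic loess the median deviation of the collagen genes was 0.169, 0.0626 and 0.0245 in knockdown clones 1, 2 and 3, and knockdown clone 1 was the highest array in 23 of 40 collagen genes, against 24% of all genes. Under both scalings COL6A1, COL9A3, COL6A2 and COL1A1 were the collagen genes with an unadjusted p under 0.05 in limma, all on the higher side. COL1A1 took the place of COL19A1. Of all 16704 genes 739 were higher at that threshold under each scaling. Weighting each array by its quality, with a weight of 0.252 for knockdown clone 1, put COL6A1 at an adjusted p of 0.0524, the lowest of any collagen gene under any alternative tried.

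**Figure D4:**
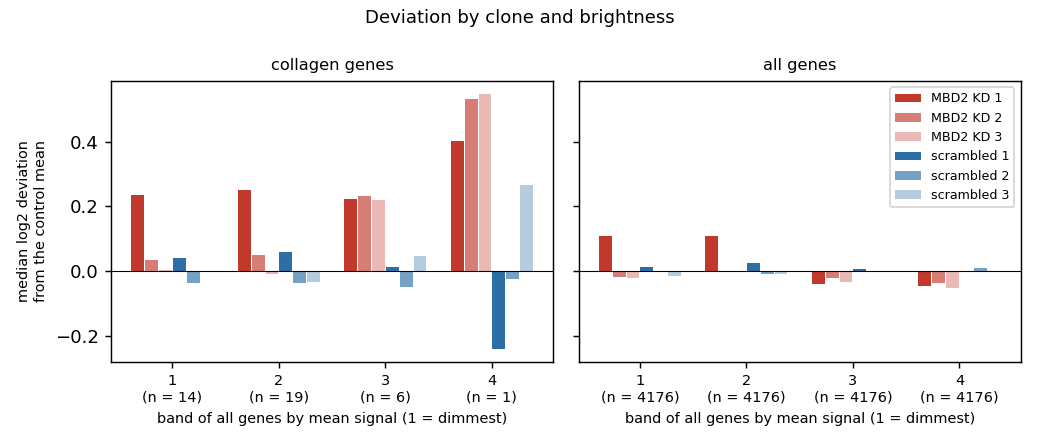
Median log2 deviation from the control mean (vertical axis) of each clone, for collagen genes and for all genes, in the 4 bands of mean signal from dimmest to brightest, with knockdown clones in red and control clones in blue. Knockdown clone 1 alone is high in bands 1 and 2 in both panels. In band 3 the medians of all 3 knockdown clones are high among the 6 collagen genes (0.218 to 0.231) and low among all genes. Groups overlap in COL1A1, COL26A1 and COL4A5, which are among these 6.

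Promoter sequences were found for 28 of the 40 genes in the RefSeq table. No sequence is given for COL1A1, COL1A2, COL2A1, COL3A1, COL5A2, COL6A1, COL6A5, COL8A1, COL9A3, COL14A1, COL20A1 and COL22A1. The motif CG, which reads the same on both strands, was counted in 300 bases from 250 before to 50 after the most upstream start listed with these sequences. For COL24A1, COL26A1, COL27A1 and COL28A1 that start lies inside the gene as RefSeq places it, so their windows are not at the gene's upstream end. All 28 windows held the motif, as did 95.9% of windows of all genes, with a median of 20 per window against 13 for all genes. By a GC content of at least 50% and an observed over expected CpG of at least 0.6, 16 of 28 windows were CpG-rich, or 57.1% against 46.7% of all windows. The median log2 fold change was 0.11 for the CpG-rich and 0.09 for the CpG-poor collagen genes, with 14 of 16 and 10 of 12 higher. The Spearman correlation of CpG count and log2 fold change over the 28 genes was 0.068. COL28A1 with 1 CpG and COL24A1 with 18 both had a log2 fold change of 0.20, and COL15A1 with 45 had -0.06. These genes were picked with their values known, and each had a mean under every array's lower quartile. A link between CpG content and the fold changes was not tested.

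Collagen chains are hydroxylated, folded and loaded into carriers in the endoplasmic reticulum before secretion. Of 22 measured genes of this step 2 were higher and 3 lower at an unadjusted p under 0.05 in limma (3.93% higher and 5.45% lower among all genes), their median log2 fold change was -0.0114, and 0 passed the adjusted threshold. PLOD2, the lysyl hydroxylase that prepares the ends of collagen chains for stable cross-links, showed a larger difference than any collagen gene. Its signals were 10.83, 9.70 and 10.10 in knockdown clones and 7.45, 8.97 and 8.04 in controls, so that every knockdown clone lay above every control, with control clone 2 nearest. The log2 fold change of PLOD2 was 2.05 (SE 0.41; limma, unadjusted p = 0.00128, adjusted p = 0.229). P3H2 of this list also exceeded every collagen gene, with a log2 fold change of 1.09 (SE 0.54, limma, unadjusted p = 0.0806). Its signals were 8.62, 6.39 and 6.46 in knockdown clones and 6.06, 6.11 and 6.03 in controls. Mainly knockdown clone 1 was high. PLOD1, the lysyl hydroxylase of the helical part, had 9.56, 9.59 and 9.69 in knockdown clones and 9.33, 9.31 and 9.47 in controls. Its log2 fold change was 0.24. On the lower side were P4HA1, a subunit of prolyl hydroxylase, with -0.38, TMEM38B, an ion channel of the endoplasmic reticulum, with -0.30, and SEC24D, a coat protein of vesicles leaving it, with -0.25. The groups did not overlap in TMEM38B and SEC24D, which were picked for a small p, and 8.87% of all genes were lower without overlap. SERPINH1, the collagen chaperone HSP47, varied more between clones than between groups, with 5.92, 6.73 and 6.92 in knockdown clones and 7.19, 5.97 and 6.45 in controls.

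**Figure D5:**
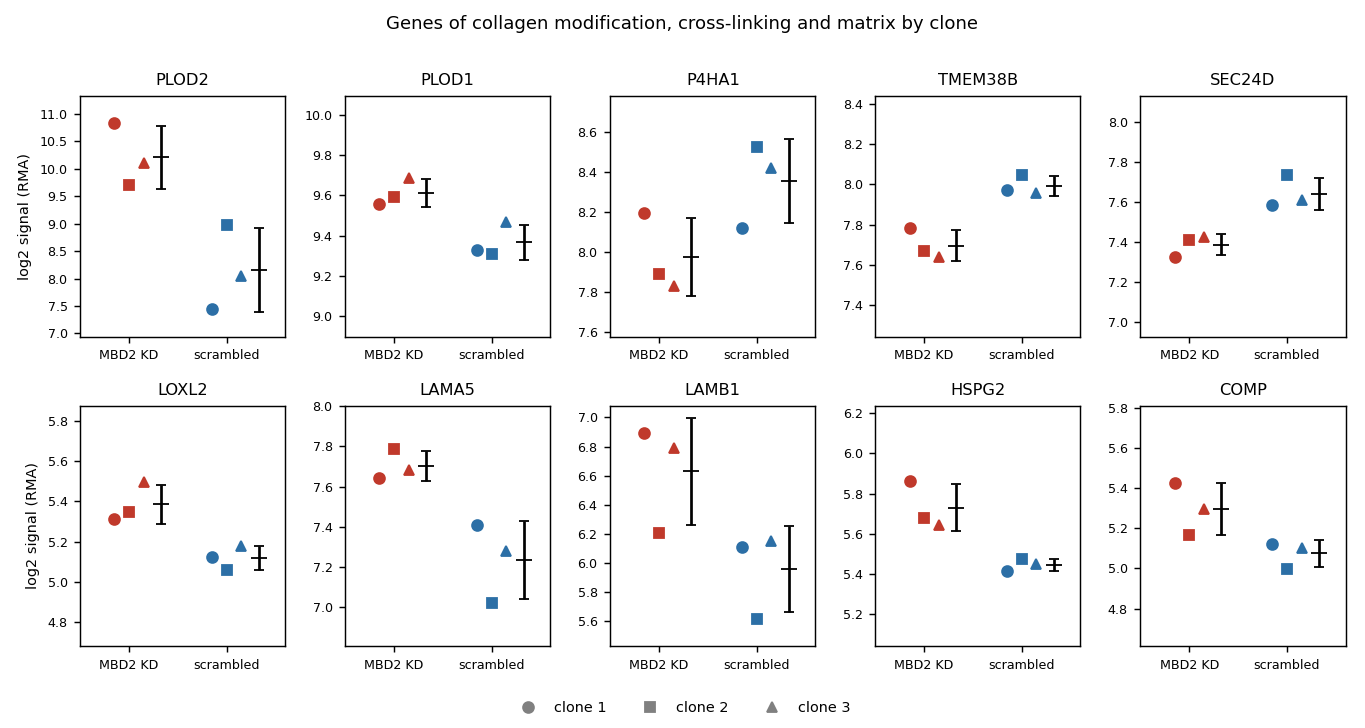
Log2 signal of each clone for 10 genes that modify, cross-link or bind collagen, with knockdown clones in red left of control clones in blue and the mean ± SD of 3 clones in black; the vertical scales differ between panels. PLOD2 shows the widest separation (9.70 to 10.83 in knockdown clones, 7.45 to 8.97 in controls), and P4HA1 is the 1 gene shown whose groups overlap. The genes shown were picked for a small p.

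Outside the cell, procollagens are trimmed by proteases and cross-linked by lysyl oxidases. Of 15 measured genes of this step 2 were higher and 0 lower at an unadjusted p under 0.05 in limma (3.93% and 5.45% among all genes), and the median log2 fold change was 0.0102. LOXL2, a lysyl oxidase that acts on type IV collagen, had 5.31, 5.35 and 5.50 in knockdown clones and 5.12, 5.06 and 5.18 in controls. PCOLCE2, an enhancer of procollagen trimming, had a log2 fold change of 0.36 and a dim signal, and BMP1, the trimming protease, had 0.18. Neither list of breakdown genes (18 measured, median -0.0283) nor of collagen receptors (8 measured, median -0.0371) had a member with an unadjusted p under 0.05. In them MMP16, a membrane-bound metalloprotease, had -1.02 (SE 0.44), PEPD, which releases proline from collagen peptides, had -0.30, and the integrin genes ITGA11 and ITGA10 had 0.22 and -0.11.

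Matrix proteins that bind collagen or share the basement membrane with it had 4 of 23 measured members higher and 0 lower at an unadjusted p under 0.05 in limma (3.93% and 5.45% among all genes), with a median log2 fold change of 0.0073. LAMA5, a laminin chain of epithelial basement membranes, had 7.64, 7.79 and 7.68 in knockdown clones and 7.41, 7.02 and 7.28 in controls, a log2 fold change of 0.47 (SE 0.11; limma, adjusted p = 0.312). LAMB1, another laminin chain, had 6.89, 6.21 and 6.79 in knockdown clones and 6.11, 5.62 and 6.15 in controls, with 0.67. HSPG2, the proteoglycan perlecan, had 5.86, 5.68 and 5.65 in knockdown clones and 5.41, 5.47 and 5.45 in controls, with 0.29. COMP, a cartilage protein that binds type IX collagen, had 0.22. These 4 genes were picked for a small p, which leaves little room for overlap, and their groups did not overlap. Higher knockdown values without overlap were seen in 6.57% of all genes. LAMC1, the laminin chain that pairs with those of LAMA5 and LAMB1, had overlapping groups and a log2 fold change of 0.21. Across these 5 lists 0 genes passed the adjusted threshold.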

How the data were processed

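RNA of 6 LNCaP clones was labelled with biotin and hybridised to 1 array per clone, per the labels' protocols. The authors deposited log2 expression values per feature. Per the submitters' processing notes, the tools were RMA (background correction, normalization between arrays and summary of probes), oligo and limma. Their versions and any filter were not given in the sources used here. The log2 scale was taken from the range of the values. Of 19712 features, 17334 carry 1 gene symbol, and each of 16704 genes was represented by its brightest feature on average.

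Both groups were fitted over all genes with limma 3.58.1 (lmFit, then eBayes with default settings) under R 4.3.3, with no covariate, and Benjamini-Hochberg adjustment covered every gene. P-values set the difference between the groups against the spread between clones within them, which limma moderates over all genes. The fit was tested on simulated data in which 200 genes were changed by more than any collagen gene here, so smaller changes were not examined. Alternatives were other scalings, filters, variance models, array weights, a replicate block, other uses of features, leaving out each array and averaging knockdown clones 2 and 3. Number pairs did not pair the clones (correlations of -0.0252, -0.189 and 0.174 for numbers 1, 2 and 3).

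The collagen genes, the other lists, the tests and the rule for naming genes were chosen with earlier results of these data known. The rule gives in full the members with an unadjusted p under 0.05, with groups that do not overlap, among the 5 largest changes or with a mean above every array median, and their partner chains or neighbours, and of each other list the members with the smallest p. P4HA1, P3H2, SERPINH1, LAMC1 and the marker genes were named after their values were seen, as were some further collagen genes. RefSeq of GRCh38.p14 gave names, gene order and sequences, and all 40 collagen genes matched it. The array's build was not given in the sources used here, so no positions of features are printed. Signals of different features are not comparable as amounts. The number of arrays limits the precision.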

Additional observations from a re-analysis of the deposited data

How the results depend on the processing

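No collagen gene passed an adjusted p under 0.05 under any of the 18 alternatives. The plain equal-variance test without limma's moderation, which is among them, like limma gave 4 with an unadjusted p under 0.05. Of all 16704 genes 1409 were under it in that test, and 1568 in limma's main fit, in either direction. Among all genes 325 passed with array weights, 70 without knockdown clone 1, 7 without control clone 1, 1 each with quantile normalization and cyclic loess, and 0 under the others. COL6A1 and COL9A3 had an unadjusted p under 0.05 under every one of them, with log2 fold changes of 0.37 to 0.63 and 0.24 to 0.33. COL6A2 missed it without knockdown clone 2 and without control clone 2. Leaving out single clones gave 2 to 4 collagen genes on the higher side at an unadjusted p under 0.05 (2 without control clone 2). On the lower side it gave 0 to 1 (1 without knockdown clone 1). Of all 16704 genes 1088 (without knockdown clone 3) to 2671 (without knockdown clone 1) were under it in either direction. Higher means were seen in 29 to 37 collagen genes, against 43.4% to 51.1% of all genes, with a collagen median of 0.040 to 0.15. The median was 0.0722 with array weights and 0.15 with knockdown clones 2 and 3 averaged. Leaving out the dimmest 30% of genes kept 23 collagen genes, and 23 had higher means, against 43.6% of all genes kept. MBD2 had -1.28 in all arrays, -1.27 with array weights, where it passed, and -1.445 to -1.187 without single clones, where it passed without knockdown clone 1 or control clone 1.

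Signs turned in 8 collagen genes, with log2 fold changes of -0.05 to 0.12 in all arrays, and the cause was not tested. Quantile normalization gave -0.026 for COL10A1, -0.017 for COL1A2 and -0.00078 for COL4A1, and cyclic loess gave -0.025, -0.023 and -0.0040 for them. Array weights gave -0.078 for COL10A1, -0.020 for COL1A2, -0.0075 for COL20A1, -0.029 for COL3A1, -0.075 for COL4A1 and -0.0098 for COL5A3. With knockdown clones 2 and 3 averaged COL12A1 had 0.038. Without single clones the ranges were -0.082 to 0.094 for COL10A1, -0.17 to 0.055 for COL12A1, -0.024 to 0.039 for COL1A2, -0.043 to 0.21 for COL20A1, -0.15 to 0.035 for COL21A1, -0.0075 to 0.19 for COL3A1, -0.061 to 0.11 for COL4A1 and -0.032 to 0.12 for COL5A3. TMEM38B (-0.33) and LAMA5 (0.56) passed with array weights only.

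The replicate number was also used as a block, the numbers being shared labels and not a known pairing. The count of collagen genes past the adjusted threshold was then 0. At an unadjusted p under 0.05 there were 3 on the higher side, against 1576 of all 16704 genes in either direction. The median was 0.11, 35 means were higher, and MBD2 had -1.28. COL19A1 was the collagen gene no longer under 0.05, and no adjusted call changed. With 3 clones a group the standard errors of 0.08 to 0.16 limit what could be called, and 14 collagen genes had a mean under every array's lower quartile.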
